A study of Mus musculus with 40 samples.

Results

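The genes described here are the deubiquitinases that carry a Usp, Otud or Uchl name in the gastrocnemius of female mice bearing Lewis lung carcinoma. They were chosen by gene symbol alone (Usp followed by a number, Otud or Uchl, without Usp18), with no use of their values, and 52 of the 12573 genes in the deposited table met the rule. They comprise 42 Usp genes, 6 Otud genes and 4 Uchl genes. Usp6nl is caught by its name only, since it encodes a GTPase-activating protein for a Rab GTPase, so 51 of the 52 carry the name of a deubiquitinase family. Whether each of them encodes an active enzyme was not examined.

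Deubiquitinases are proteases that cut ubiquitin from proteins, edit ubiquitin chains or release ubiquitin from its precursors. They act against the ubiquitin ligases, and in skeletal muscle the balance between them helps to decide which proteins reach the proteasome, the machine that degrades much of the contractile protein lost in cachexia. The USP (ubiquitin-specific protease), OTU (ovarian tumor protease) and UCH (ubiquitin C-terminal hydrolase) families are all cysteine proteases. The JAMM enzymes, which include the proteasome subunit Psmd14, are metalloproteases.

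The data set holds 1 library from each of 40 mice, which fall into 5 groups of 8. Lewis lung carcinoma is a mouse lung tumor line that grows in C57BL6/J mice without rejection. PBS mice received saline and were 12 weeks old at collection, whereas tumor-bearing mice were collected after 1 week (1wk, 9 weeks old) or 2 weeks (2wk, 10 weeks old). The HT (high tumor) mice had tumors of at least 2 g and the LT (low tumor) mice tumors of at most 1.2 g, both taken 3 to 4 weeks after injection at an age of 11 to 12 weeks. Every mouse was injected at the same age, and the PBS mice match only the older tumor-bearing mice in age, so that age and tumor time cannot be told apart at 1wk and 2wk. HT and LT mice were split by tumor mass after growth, not by treatment.

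The libraries differed in depth, with an estimated 4.15 to 7.75 M reads in HT mice, 3.49 to 7.24 M in LT mice and 15.67 to 28.67 M in the other 24 (M, 1e+06 reads). The value of 1 read was therefore 1.58 to 3.37 normalised units in the HT and LT libraries and 0.422 to 0.733 in the rest. All values below are the deposited values, which are estimated reads divided by a size factor for each library, and no deubiquitinase had fewer than 4.00 estimated reads in any library. HT mice C48, C54 and C55 stood apart from the other HT mice, with library weights of 0.421, 0.151 and 0.10 in a fit over all genes, against 0.728 to 0.940 for the other 5 HT mice. These 3 mice also had the highest summed levels of the listed ubiquitin ligases of muscle atrophy. Those sums were 57390, 139000 and 163600 units, against 10420 to 37590 in the other 5 HT mice. Results for HT mice are also given without these 3. Leaving them out removes the HT mice with the highest ligase levels, and is not a check of library quality alone. In 1wk mice the lowest weight was 0.264 (C17), and in PBS mice it was 0.446 (C4).

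Markers of muscle fibres were present, with 12 of 12 muscle fibre genes measured and summed levels of 1355000 to 2344000 in HT mice and 1592000 to 2551000 in PBS mice. Markers of other cells also differed between HT and PBS mice, beside 16.5% of all genes higher and 16.5% lower. Fewer marker genes passed in LT mice, where 0.636% of all genes did. S100a8 (1 of 6 measured neutrophil genes) and Pecam1 (1 of 12 endothelial genes) were higher than in PBS mice (adjusted p = 0.00563 and 0.0490). None of the marker genes passed at 1wk or 2wk. The median summed endothelial level was 5283 at 1wk, 5227 at 2wk and 5075 in LT mice, against 4063 in PBS mice. PBS sums ran from 3537 to 6152. They overlapped those at 1wk (4487 to 5952), at 2wk (4479 to 6145) and in LT mice (3916 to 6228). All 6 measured neutrophil genes were higher in HT than in PBS mice (summed level 709 to 2709 in HT mice, against 30.8 to 65.7 in PBS mice). In the erythroid list 5 of 6 genes were higher (29870 to 102100 in HT mice, against 7318 to 25720 in PBS mice), and 1 was lower. In the endothelial list 8 of 12 were higher (5373 to 6692 in HT mice, against 3537 to 6152 in PBS mice), in the macrophage list 5 of 13 (2199 to 5874 in HT mice, against 1292 to 3174 in PBS mice) and in the adipocyte list 3 of 8 (3733 to 6272 in HT mice, against 1714 to 4003 in PBS mice). Lower in HT mice were 2 muscle fibre genes, 3 of 10 fibroblast genes and 1 of 7 satellite cell genes. The counts of higher genes without C48, C54 and C55 were 6 for neutrophils, 5 for the erythroid list, 8 for endothelium, 3 for macrophages and 2 for adipocytes. That fit called 7.5% of all genes higher and 8.63% lower. In the same fit 1 muscle fibre, 1 fibroblast and 1 satellite cell gene were lower and 1 fibroblast gene was higher. None of 10 listed T, NK and B cell genes was in the table, and no nerve or slow fibre gene passed the test. Fewer cells of a type and less RNA per cell cannot be told apart in these whole-muscle libraries, and the part of other cells in the results below was not tested.

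In the PBS muscle the highest level per length was that of Usp47, a relative of Usp7 that acts on DNA polymerase beta, with 1375 ± 169 normalised units per kb of transcript (SD, n = 8). Usp2 followed with 598 ± 111 units per kb and Usp15, which acts on the TGF-beta receptor and its SMAD proteins, with 558 ± 37. The ranges of these last 2 genes overlapped (494 to 837 units per kb for Usp2 and 497 to 619 for Usp15), so their order is not set beyond the spread between mice. Usp19, which rises in wasting muscle of rats, had 457 ± 31.9 units per kb, and Usp13 had 407 ± 70.8. The upper end of the family was thus held by 5 Usp genes, and of these Usp47 alone did not overlap with the next gene in the order.

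At the lower end Uchl1, a hydrolase known for its abundance in neurons, had 14.9 ± 2.30 units per kb in PBS mice and Usp49, a histone H2B deubiquitinase, had 11.4 ± 2.05. Usp11, a nuclear relative of Usp4 and Usp15, had 10.4 ± 1.04, Usp35 had 6.18 ± 1.26 and Usp6nl had 4.87 ± 1.43 units per kb. The highest gene exceeded the lowest by 282-fold. By raw level over the 40 libraries, 13 genes averaged over 1000 units, 35 lay between 50 and 1000, and 4 were under 50. Most of the family was therefore measured well above the value of single reads.

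**Figure D1:**
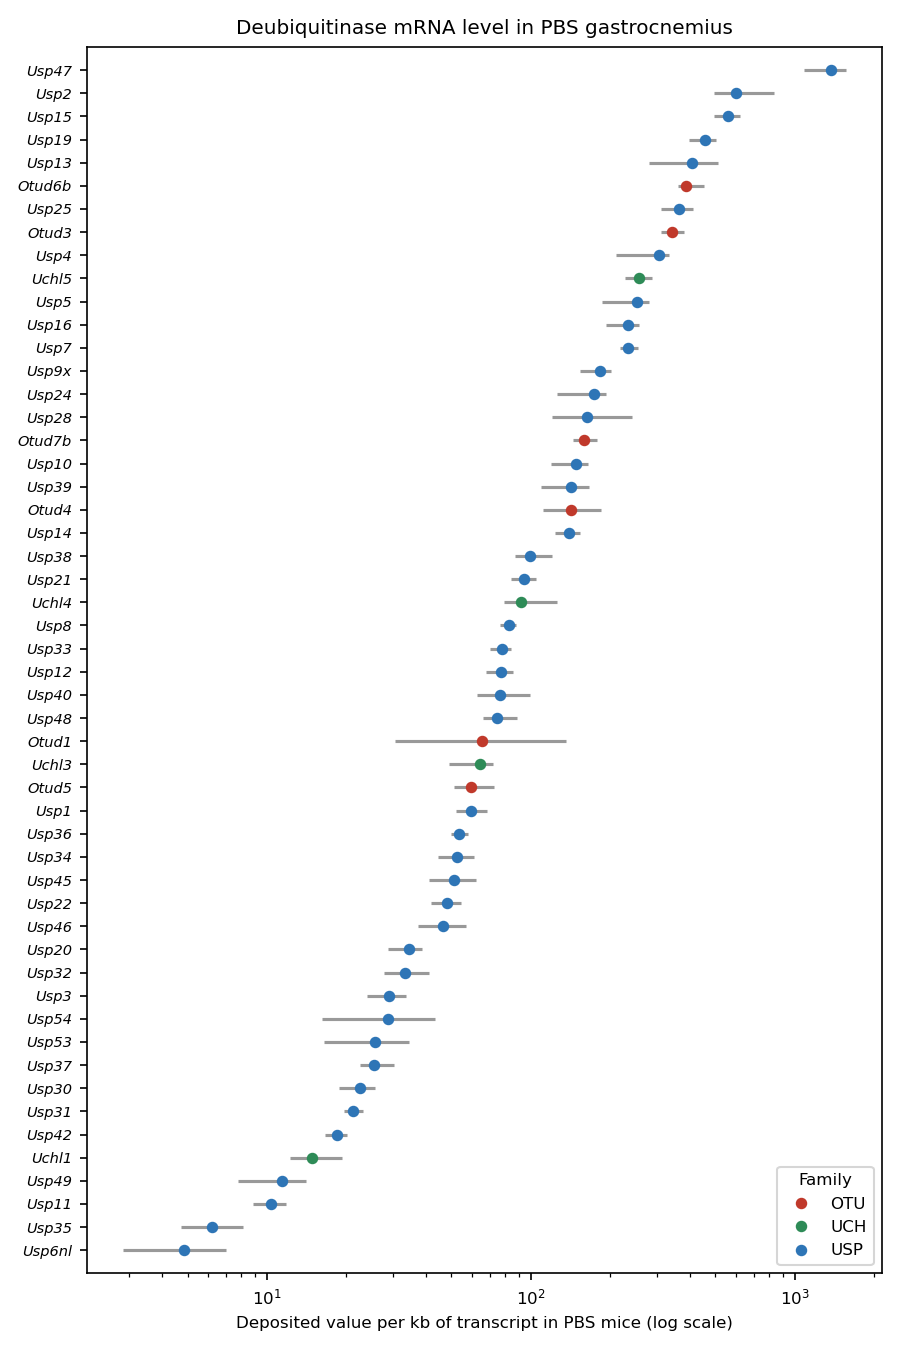
Level of each of the 52 genes in PBS mice, as deposited value per kb of canonical transcript on a log scale; points are means, lines run from the lowest to the highest of 8 mice, and colours mark the family. Usp47 sits at 1375 units per kb and Usp6nl at 4.87.

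Comparing HT with PBS mice asks which deubiquitinase mRNAs differ in the muscle at the largest tumor burden. Of the 52 genes, 9 were higher (17.3%) and 2 were lower (3.85%) at an adjusted p under 0.05. Over all 12573 genes the shares were 16.5% higher and 16.5% lower, so the share of higher deubiquitinase genes was near the background. The higher genes, by size of change, were Usp14, Usp3, Usp45, Otud5, Usp13, Usp16, Usp32, Usp7 and Usp8, and the lower ones were Usp2 and Usp21. The median log2 fold change of the 52 genes was 0.09, beside 0.00 over all genes, and the median size of change regardless of direction was 0.13, beside 0.24. Only 3 of the 11 calls exceeded 1.5-fold, namely Usp14, Usp3 and Usp2.

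These counts rested in part on C48, C54 and C55. Without these 3 mice 3 genes were higher than in PBS mice, namely Usp14, Usp3 and Usp46, and 1 was lower, Usp36, so that 2 of the 11 calls remained, in a fit that called 7.5% of all genes higher and 8.63% lower. With only the HT and PBS libraries in the fit 2 were higher (Usp14 and Usp3) and 1 lower (Usp2), beside 9.93% and 9.53% of all genes. Without HT mouse C38 15 were higher, and without PBS mouse C6 1 was lower. For these fits that leave out 1 mouse the shares over all genes are not given here. For 21 of the 52 genes (40.4%) C54 and C55 held the highest pair of HT values, against 21.9% of all genes, and for 7 genes (13.5%) the lowest pair, against 19.1%. Counted per mouse, C54 had 28 and C55 had 22 of the 52 genes above the range of the PBS mice, whereas the other 6 HT mice had 13 to 18. The increases were thus shared unevenly among the HT mice. The 8 HT mice also had 6 to 14 of the 52 genes below the PBS range. LT mice had 3 to 16 genes above that range, and each PBS mouse had 1 to 12 above the range of the remaining PBS mice. The same counts over all genes are not given here.

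**Figure D2:**
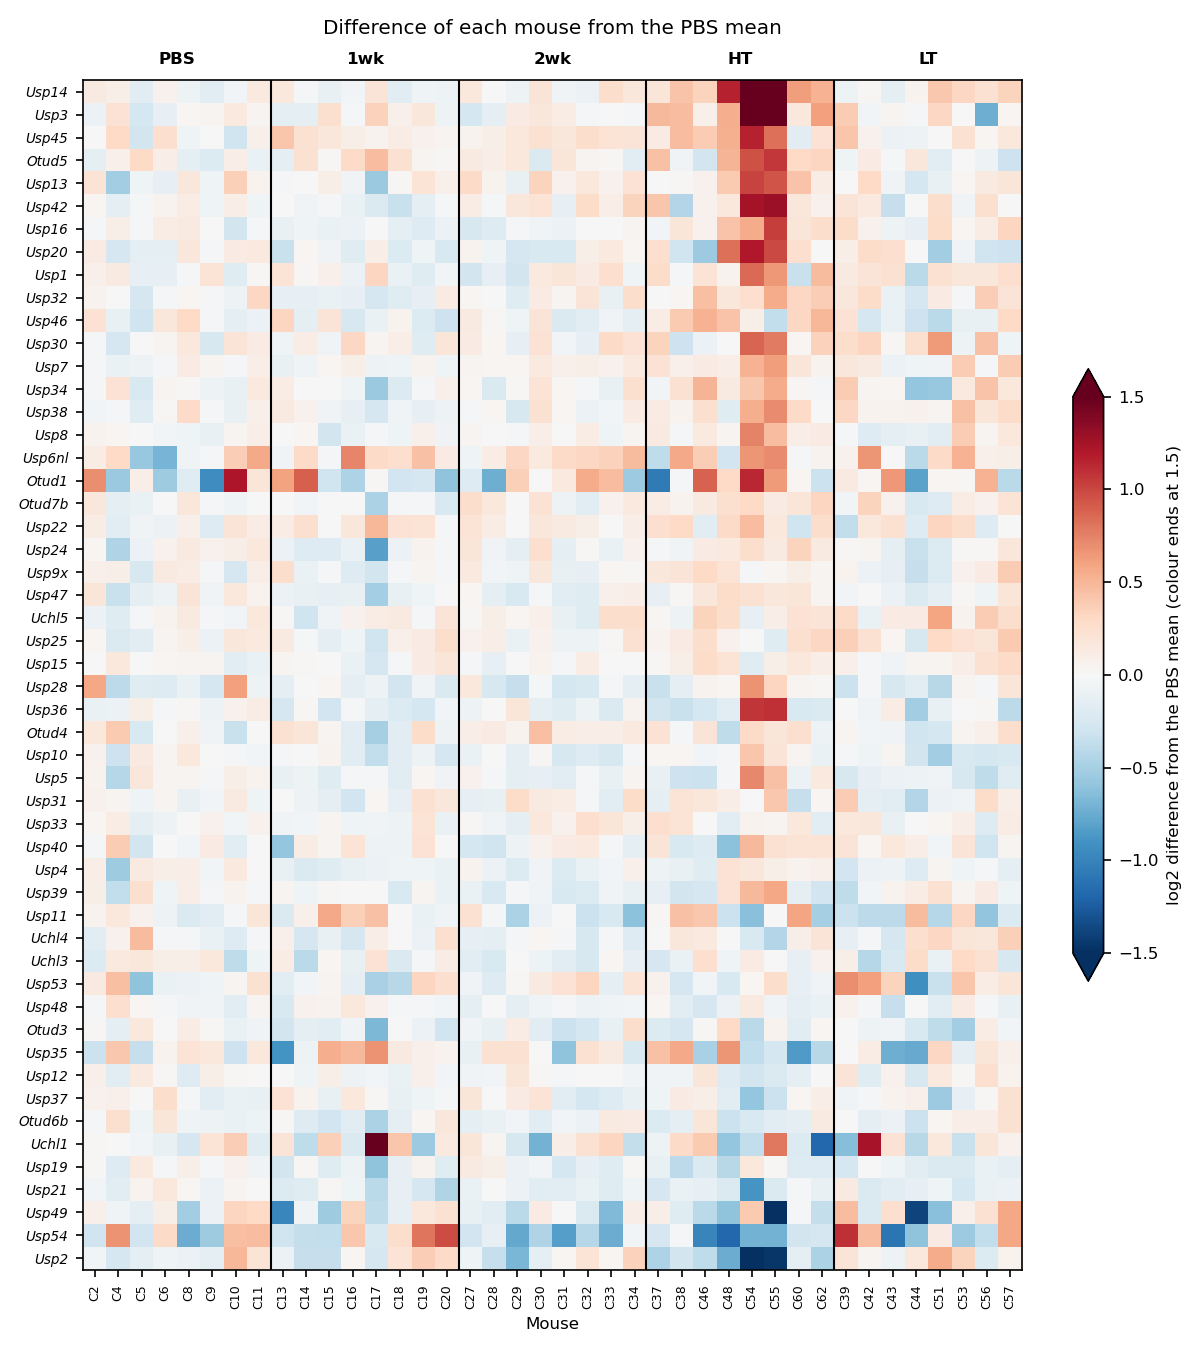
Difference of each mouse (column) from the PBS mean for each of the 52 genes (row), on the log2(value + 1) scale, with genes ordered by their HT against PBS fold change and colour ending at 1.5. The strongest colours lie in HT mice C54 and C55, where 28 and 22 genes were above the PBS range.

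The proteasome binds 2 deubiquitinases of these families, Usp14 and Uchl5, which trim ubiquitin chains from substrates before they are degraded. Usp14 ranged from 746 to 2142 units in HT mice (median 979), against 587 to 727 in PBS mice (median 664). All 8 HT mice lay above every PBS mouse, with C48, C54 and C55 at 1461, 2105 and 2142 and the other 5 between 746 and 1012. This difference was 0.83 on the log2 scale (SE 0.14, adjusted p = 5.73e-05), and it was 0.42 (adjusted p = 0.0012) without C48, C54 and C55. Usp14 was the only member of the family whose HT values were entirely separate from the PBS values. The share of all genes with such a separation is not given here.

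Usp14 shares 2503 exon bases on the opposite strand with Thoc1, a gene of the mRNA export complex THO. Thoc1 had a log2 fold change of 0.27 in HT against PBS mice (adjusted p = 0.0427) and 0.04 in HT against LT mice (adjusted p = 0.826). The sources used here do not say how strand entered the counting, and the part of reads from Thoc1 in the Usp14 value was not tested. Uchl5, the other proteasome-bound enzyme, ranged from 316 to 433 units in HT mice (median 382), against 305 to 385 in PBS mice (median 339). Its log2 fold change of 0.11 (SE 0.08) did not pass (adjusted p = 0.304).

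The third deubiquitinase of the proteasome, the metalloprotease subunit Psmd14, rose by 0.66 on the log2 scale in HT against PBS mice (adjusted p = 0.000196), and its partner subunit Psmd7 by 0.49 (adjusted p = 0.000546). Adrm1, the proteasome subunit that holds Uchl5, was higher by 0.52 (adjusted p = 0.0173). Psmd14 and Psmd7 stayed called without C48, C54 and C55, and Adrm1 did not.

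A second set acts on chromatin and DNA repair. Usp3, which removes ubiquitin from histones H2A and H2B, ranged from 171 to 613 units in HT mice (median 233), against 135 to 189 in PBS mice (median 167). In C54 and C55 it reached 607 and 613, and the other 6 HT mice lay between 171 and 250, so 6 of 8 HT mice were above every PBS mouse. Usp3 thus had a log2 fold change of 0.77 (SE 0.18, adjusted p = 0.00147), which was 0.36 (adjusted p = 0.0438) without C48, C54 and C55. Usp3 lies on chromosome 9 at 66421921 to 66500397 (mm39, minus strand).

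Usp45, which acts on the DNA repair protein ERCC1, ranged from 273 to 681 units in HT mice (median 408), against 248 to 374 in PBS mice (median 306). The 2 groups overlapped, with 5 of 8 HT mice above the highest PBS mouse. The difference was 0.44 on the log2 scale (SE 0.11, adjusted p = 0.0031), but 0.20 (adjusted p = 0.145) without the 3 mice.

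Usp16, another H2A deubiquitinase, ranged from 731 to 1538 units in HT mice (median 874), against 618 to 827 in PBS mice (median 745), and 6 of 8 HT mice exceeded every PBS mouse. This gave a log2 fold change of 0.33 (SE 0.09, adjusted p = 0.00612). Without the 3 mice it was 0.13 (adjusted p = 0.224). Usp16 shares 588 exon bases with Cct8, a chaperonin subunit on the other strand whose mRNA was higher by 0.20 in HT mice (adjusted p = 0.0205).

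Usp7, which acts on Mdm2 and p53, ranged from 1099 to 1638 units in HT mice (median 1179), against 994 to 1158 in PBS mice (median 1046). In the HT group 4 of 8 mice were above every PBS mouse, and the log2 fold change of 0.23 (adjusted p = 0.0131) was 0.13 without the 3 mice (adjusted p = 0.190).

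Usp21, which also removes ubiquitin from histone H2A, went the other way. It ranged from 112 to 207 units in HT mice (median 186), against 187 to 234 in PBS mice (median 211), with 4 of 8 HT mice below every PBS mouse. The lowest value, 112 units in C54, was far from the next, 176. Usp21 had a log2 fold change of -0.24 (SE 0.09, adjusted p = 0.0287). It was -0.12 (adjusted p = 0.281) without C48, C54 and C55, and the call was also lost without C54 alone and without PBS mouse C6.

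Usp36, a nucleolar enzyme named here after its values were seen, was split within the HT group. In C54 and C55 it had 640 and 649 units, and in the other 6 HT mice 241 to 270, against 283 to 329 in PBS mice. Over all 8 HT mice its log2 fold change was 0.08 (adjusted p = 0.698), and without C48, C54 and C55 it was -0.27 (adjusted p = 0.0264). Thus 2 HT mice were above and 6 were below every PBS mouse.

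Among enzymes of signalling, endosomes and autophagy, Otud5, an OTU enzyme that acts on TRAF3 and restrains interferon production, ranged from 211 to 533 units in HT mice (median 334), against 222 to 315 in PBS mice (median 254). It was above every PBS mouse in 5 of 8 HT mice and below every PBS mouse in C46. Its fold change was 0.41 on the log2 scale (SE 0.12, adjusted p = 0.0109). Without the 3 mice it was 0.15 (adjusted p = 0.371).

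Usp13, a relative of Usp5 that acts on the autophagy protein Beclin 1, ranged from 3156 to 6342 units in HT mice (median 3768), against 2190 to 4021 in PBS mice (median 3139). C54 and C55, at 6342 and 6032, stood above the other 6 HT mice, which lay between 3156 and 4228. Over the group the log2 fold change was 0.37 (SE 0.13, adjusted p = 0.0221) and 0.12 (adjusted p = 0.484) without the 3 mice, and the call was also lost without C54 alone, without C55 alone and without PBS mouse C4.

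Usp8, which works on endosomes and on receptors such as that for epidermal growth factor, ranged from 339 to 579 units in HT mice (median 377), against 320 to 369 in PBS mice (median 347). Its log2 fold change of 0.22 (adjusted p = 0.0397) was close to the threshold, was lost without C54 or C55 and without any of PBS mice C5, C6, C8 and C9, and was 0.10 (adjusted p = 0.386) without the 3 mice. Usp32, a membrane-bound enzyme that acts on Rab7, ranged from 236 to 345 units in HT mice (median 286), against 197 to 291 in PBS mice (median 232). For Usp32 the log2 fold change was 0.27 (adjusted p = 0.0169), and 0.23 (adjusted p = 0.0931) without the 3 mice, and the call was also lost without C55 alone.

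**Figure D3:**
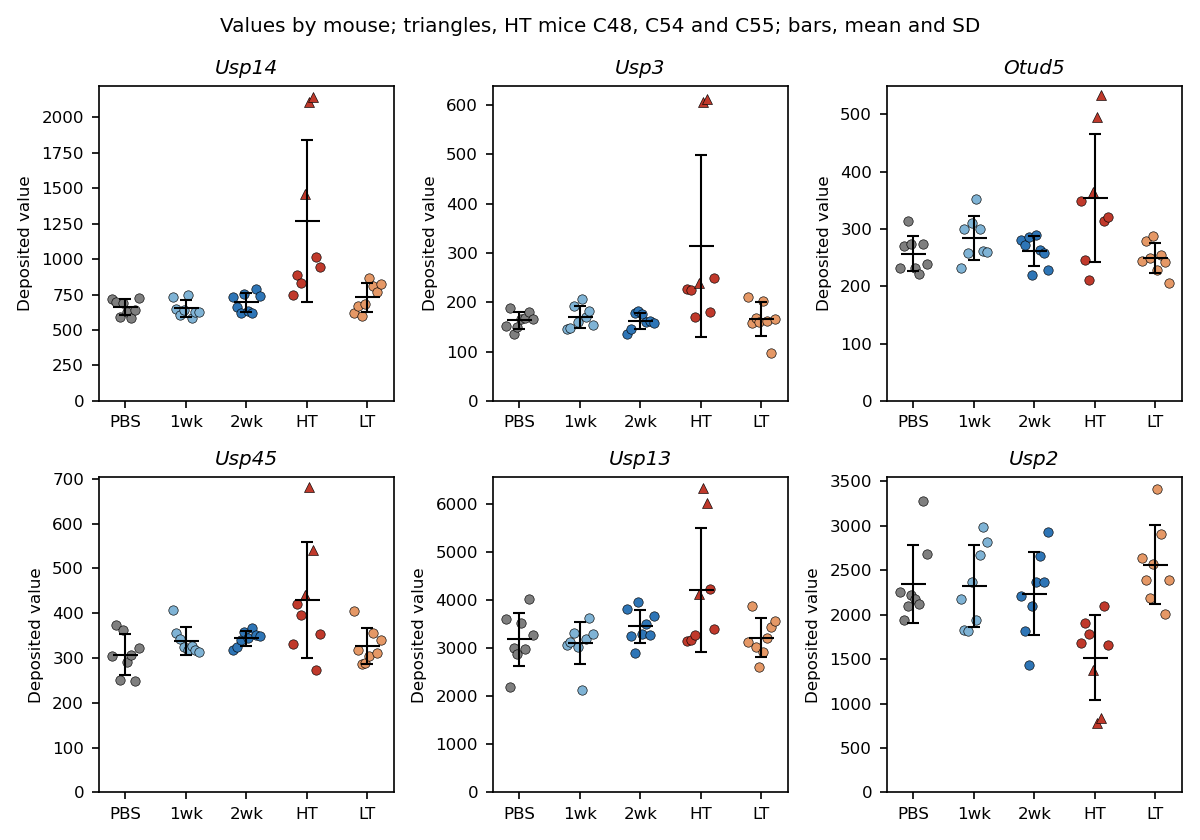
Deposited value of Usp14, Usp3, Otud5, Usp45, Usp13 and Usp2 in each of the 40 mice, by group; bars give the mean and SD of 8 mice, and triangles mark HT mice C48, C54 and C55. All 8 HT points of Usp14 lie above the PBS range of 587 to 727, and 7 of the 8 HT points of Usp2 lie below the PBS range of 1939 to 3282.

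Usp2 was the only gene of the family called lower in HT mice against both PBS and LT mice. It encodes an enzyme whose transcription follows the circadian clock in many tissues and whose targets include the clock protein Per1. Usp2 ranged from 786 to 2101 units in HT mice (median 1669), against 1939 to 3282 in PBS mice (median 2198) and 2006 to 3413 in LT mice (median 2485). In C54 and C55 it was 786 and 842, in C48 1379, and in the other 5 HT mice 1661 to 2101, so 7 of 8 HT mice lay below every PBS mouse and C60 alone overlapped. The log2 fold change was -0.69 against PBS (SE 0.16, adjusted p = 0.00157) and -0.82 against LT (adjusted p = 0.000803). Without C48, C54 and C55 it was -0.35 (adjusted p = 0.0852) and -0.48 (adjusted p = 0.0517), which is the same direction but not past the threshold. Usp54, named after its values were seen, was below the PBS mean and the LT mean in all 8 HT mice, with 82.6 to 184 units in HT mice (median 135), against 112 to 302 in PBS mice (median 191). Its log2 fold change of -0.55 did not pass (adjusted p = 0.0826), nor did that of -0.51 against LT (adjusted p = 0.137).

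A promoter window of Usp2 is shown because Usp2 is the family member with the largest fall. The window from 250 bases before to 50 bases after 1 annotated start (RefSeq, GRCm38.p6, chromosome 9, plus strand, 44084670 to 44084969) reads as follows, with capitals on the match to TGANNNNGC, the core of the antioxidant response element.
Usp2: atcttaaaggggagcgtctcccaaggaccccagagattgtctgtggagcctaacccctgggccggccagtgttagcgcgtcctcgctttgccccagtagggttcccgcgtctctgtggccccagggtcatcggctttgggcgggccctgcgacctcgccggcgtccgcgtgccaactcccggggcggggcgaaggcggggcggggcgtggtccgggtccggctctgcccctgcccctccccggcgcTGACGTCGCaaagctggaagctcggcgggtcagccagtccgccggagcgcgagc
The window holds no CACGTG, the E-box that clock factors bind, no GTAAACA, a FOXO motif, and no TTCCNGGAA, a STAT motif, on either strand. Only this window of Usp2 was searched, so any other start of the gene is not covered. Of the 52 genes 41 matched the RefSeq promoter table. CACGTG was in 7 of them (17.1%), against 7.24% of 27025 promoters in the table, and 10.5% of the 9993 that belong to measured genes. Among the called genes that matched, Usp16 and Usp32 held it, and 30 bases around each match are shown with the E-box in capitals (Usp16 on chromosome 16, 87454896 to 87454925, plus strand; Usp32 on chromosome 11, 85139941 to 85139970, minus strand).
Usp16: cactgcagtgaaCACGTGgcgggcctccca
Usp32: gtgggagcgggtCACGTGactcggcatgga
GTAAACA was in 1 of 41 (Otud1) against 3.55% of all promoters, TTCCNGGAA in 0 of 41 against 1.15%, and TGANNNNGC in 21 of 41 against 41.4%. CACGTG reads the same on both strands, and none of these motifs contains another. A match is a description of the letters only.

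Clock genes measured beside Usp2 included 15 of 17 listed, and against PBS 3 were lower in HT mice and 0 higher, with a median log2 fold change of -0.24 beside 0.00 over all genes. Of all genes, 16.5% were lower and 16.5% higher. The output gene Dbp had 30.9 to 754 units in HT mice (median 389), against 964 to 2113 in PBS mice (median 1131), a log2 fold change of -2.17 (adjusted p = 0.000323). Hlf, a related transcription factor, was lower by a log2 fold change of -0.83 (adjusted p = 0.00586) and Per3 by -0.57 (adjusted p = 0.0389). Without C48, C54 and C55, 2 clock genes were lower, Dbp and Per1, beside 8.63% of all genes. No source used here gives the hour of collection, and its part in the level of Usp2 was not tested.

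Usp19, Usp25, Usp15, Usp47 and Usp9x, named for their level or their known roles, were not called. Usp19, for which loss protects muscle in mice and which acts in part at the endoplasmic reticulum, ranged from 1635 to 2447 units in HT mice (median 1912), against 1908 to 2412 in PBS mice (median 2182). Its log2 fold change was -0.17 (95% interval -0.33 to -0.01, adjusted p = 0.0951). Usp25, whose muscle isoform in humans binds sarcomeric proteins, had a log2 fold change of 0.11 (95% interval -0.06 to 0.28, adjusted p = 0.322). Usp15 had 0.09 (adjusted p = 0.257), Usp47 0.12 (adjusted p = 0.233) and Usp9x, which acts on SMAD4 and Mcl1, 0.12 (adjusted p = 0.247). The 95% intervals of these 5 genes stayed within 1.5-fold in either direction. Usp19 passed with library weights, with quantile normalization and without HT mouse C54, and Usp47 passed with voom on estimated reads.

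Among the 6 Otud genes Otud5 alone was called. Otud7b, which acts on K11-linked chains and TRAF3, ranged from 1341 to 1627 units in HT mice (median 1448), against 1180 to 1455 in PBS mice (median 1280), and all 8 HT mice were above the PBS mean. Its log2 fold change of 0.18 (95% interval 0.03 to 0.34) did not pass (adjusted p = 0.0590). It passed with voom on estimated reads and without HT mouse C38, PBS mouse C2 or PBS mouse C8. Otud1 varied widely, from 79.1 to 365 units in HT mice and from 86.8 to 384 in PBS mice, and its log2 fold change of 0.20 had an interval of -0.36 to 0.76. Otud3 had -0.08 (adjusted p = 0.551), Otud4, a binder of the DNA alkylation repair machinery, 0.08 (adjusted p = 0.581) and Otud6b, a regulator of proteasome assembly, -0.11 (adjusted p = 0.314).

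The 4 Uchl genes gave no call. Uchl1 had 11.2 to 46.9 units in HT mice (median 24.2), against 22.2 to 34.9 in PBS mice (median 26.4), a log2 fold change of -0.12 with an interval of -0.63 to 0.39, and the HT values rest on a median of 10.4 estimated reads. Uchl3, which also cleaves the ubiquitin-like protein Nedd8, had 178 to 254 units in HT mice, against 163 to 239 in PBS mice (log2 fold change -0.01, adjusted p = 0.936). Uchl4 is a mouse gene closely related to Uchl3, and 21.8% of its 50-base windows also occur in Uchl3. Reads from these shared stretches may be counted for either gene, so the values of both are uncertain. The ratio of Uchl4 to Uchl3 ran from 0.364 to 0.598 over the HT libraries, 0.429 to 0.754 over the LT libraries and 0.414 to 0.613 over the PBS libraries.

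The lowest genes were too shallow or too variable for small differences. Usp49 had 24.7 to 134 units in HT mice, against 70.9 to 129 in PBS mice (log2 fold change -0.39, interval -0.88 to 0.11), and its exons overlap those of Tomm6 and Gm20517. The log2 fold change of Usp11 was -0.00 with an interval of -0.34 to 0.34. For Usp35 it was -0.09 with an interval of -0.52 to 0.34, and for Usp6nl 0.21 with an interval of -0.14 to 0.56. Of the 41 genes not called in HT against PBS mice, 35 had a 95% interval that stayed within 1.5-fold in either direction, and 6 did not. These intervals rest on the spread shared by all groups, and may be too narrow for genes that varied more in HT mice.

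Setting HT against LT mice compares large with small tumors at a similar depth, 3 to 4 weeks after injection. The week of each mouse is not known here, so the weeks may be mixed differently in the 2 groups. Here 8 of the 52 genes were higher (15.4%) and 1 was lower (1.92%), beside 9.94% and 10.5% of all genes. The 8 were Usp3, Usp14, Otud5, Usp45, Usp13, Usp46, Usp10 and Usp8, and the gene that was lower was Usp2. The median log2 fold change of the 52 genes was 0.12, beside 0.01 over all genes. Of the genes called, 7 were also called against PBS, in comparisons that share the HT mice, 4 were called against PBS only (Usp16, Usp32, Usp7 and Usp21) and 2 against LT only (Usp46 and Usp10). When the fit held HT and LT libraries alone 0 genes were called higher, beside 1.57% of all genes, with the same log2 fold changes. The count without C48, C54 and C55 was 1 higher (Usp46) and 0 lower, beside 1.22% and 1.96%. It was 4 higher without C54 and 5 higher without C55, LT mouse C44 or LT mouse C51. For these last fits the shares over all genes are not given here.

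Usp14 ranged from 599 to 870 units in LT mice (median 727), and 6 of 8 HT mice were above every LT mouse (log2 fold change 0.69, SE 0.14, adjusted p = 0.00127). Usp3 ranged from 97.8 to 211 units in LT mice (median 164), and again 6 of 8 HT mice were higher than all of them (log2 fold change 0.77, SE 0.18, adjusted p = 0.00317). The log2 fold change was 0.45 for Otud5 (adjusted p = 0.00997), 0.35 for Usp45 (adjusted p = 0.0256), 0.35 for Usp13 (adjusted p = 0.0478) and 0.22 for Usp8 (adjusted p = 0.0495). The last 2 were close to the threshold, and Usp13 lost its call in 10 and Usp8 in 8 of the 16 fits that left out 1 mouse. Usp45 lost its call without C54 and without C55. Without C48, C54 and C55 the adjusted p was 0.0700 for Usp14 and 0.0977 for Usp3.

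Usp46, which works with the partner proteins Wdr48 and Wdr20 and is known for its action on glutamate receptors, was the only gene still called against LT without C48, C54 and C55. It ranged from 163 to 304 units in HT mice (median 269), against 159 to 259 in LT mice (median 195), with the lowest HT value in C55. Against LT its log2 fold change was 0.34 (SE 0.11, adjusted p = 0.0288), and 0.46 (adjusted p = 0.0193) without C48, C54 and C55. Against PBS it was 0.25 (adjusted p = 0.0903) with all 8 HT mice and 0.37 (adjusted p = 0.0258) without the 3. The call against LT was lost in 6 of the 16 fits that left out 1 mouse, namely HT mice C46, C48 and C62 and LT mice C42, C44 and C51. It was also lost with only the 2 groups in the fit, with library weights, with voom on estimated reads and at an adjusted p under 0.01. Neither Wdr48 nor Wdr20 passed in HT against LT mice (adjusted p = 0.727 and 0.986).

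Usp10, which binds the stress granule protein G3bp1 and falls outside the rule for naming, was named after its values were seen. It ranged from 514 to 735 units in HT mice (median 561), against 381 to 567 in LT mice (median 469) and 444 to 611 in PBS mice (median 558). The log2 fold change against LT was 0.26 (adjusted p = 0.0163), a call that was lost without C54, and against PBS 0.07 (adjusted p = 0.520).

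**Figure D4:**
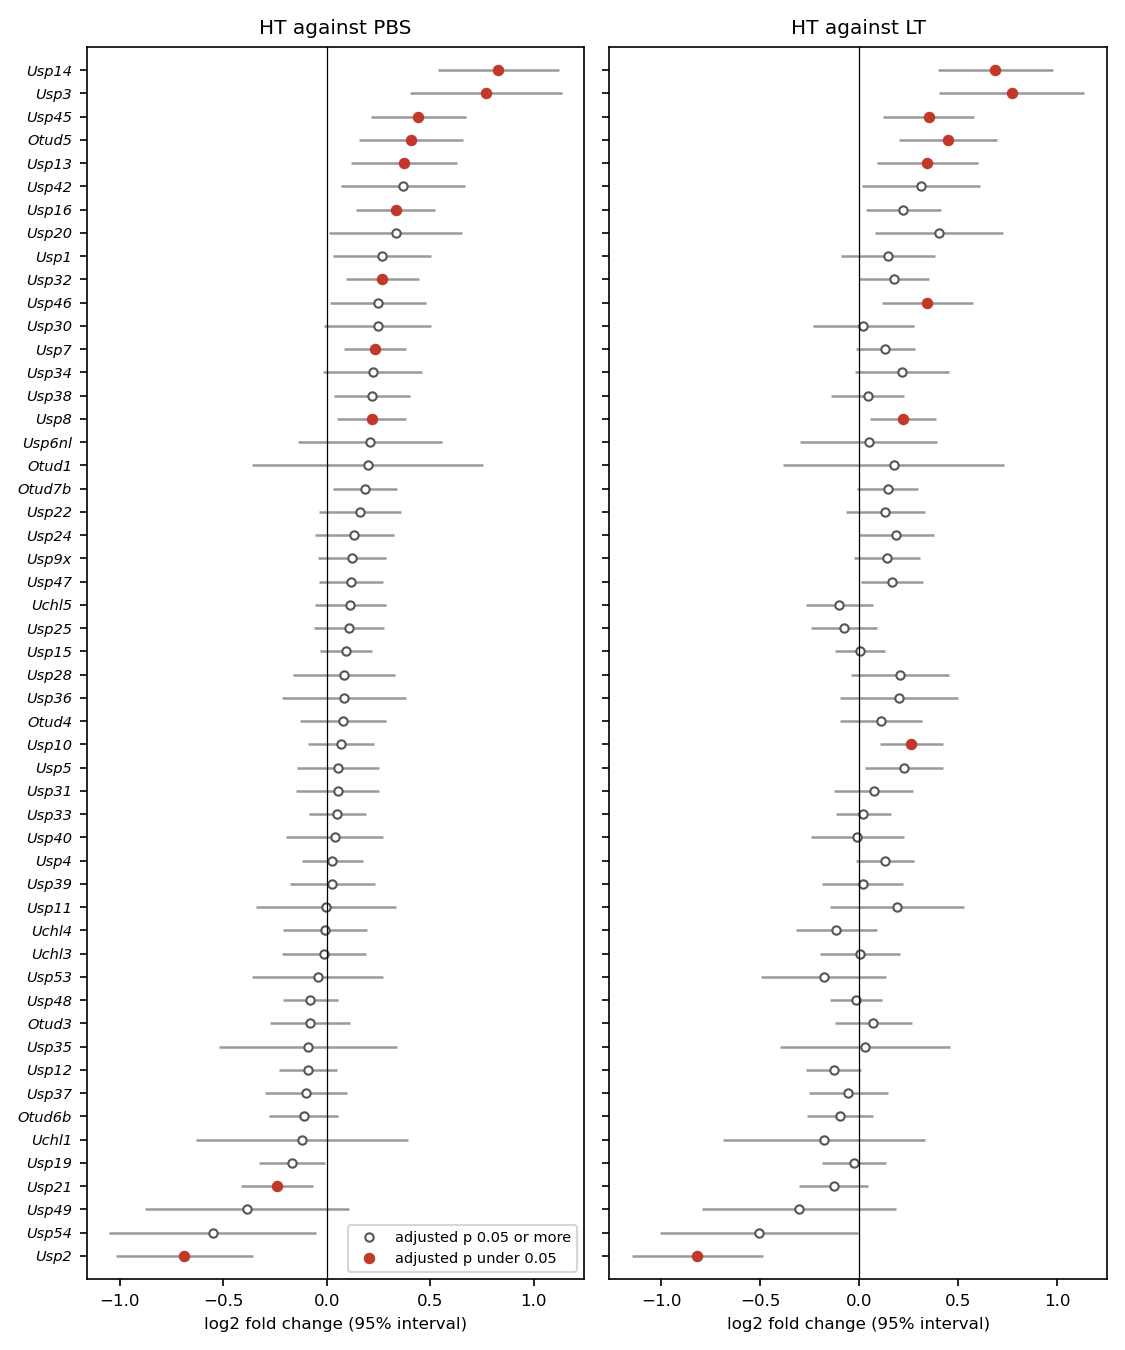
Log2 fold change of each of the 52 genes with its 95% interval in HT against PBS mice (left) and HT against LT mice (right), both ordered by the left panel; filled points passed an adjusted p under 0.05. Filled points number 11 on the left, 9 of them above 0, and 9 on the right, 8 of them above 0.

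In LT mice, sequenced at a depth similar to that of HT mice, 0 of the 52 genes were called against PBS, beside 0.636% of all genes. At an unadjusted p under 0.05 by limma there were 3 (5.77%, beside 12.3% of all genes), Uchl5 and Usp25 (log2 fold change 0.21 and 0.19) and Usp10 (-0.19), and the smallest adjusted p was 0.281. At 2wk 0 genes were called, beside 0.0795% of all genes, and 0 passed at an unadjusted p under 0.05, beside 4.65%. At 1wk 0 were called, beside 0.525%, and 3 passed unadjusted (5.77%, beside 11.6% of all genes), Usp21, Otud3 and Usp19 (log2 fold change -0.21, -0.21 and -0.17), with a smallest adjusted p of 0.314. The counts of calls in these 3 comparisons were also 0 under every alternative run. The 95% interval stayed within 1.5-fold in either direction for 47 of the 52 genes at 1wk, 49 at 2wk and 52 in LT mice.

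The 3 genes with calls over 1.5-fold are given here in every group. Usp14 averaged 660 ± 56.6 units in PBS mice, 652 ± 58.5 at 1wk, 694 ± 66.4 at 2wk, 1267 ± 571 in HT mice and 731 ± 102 in LT mice (SD, n = 8 each). Usp3 averaged 163 ± 17.2 in PBS mice, 170 ± 22 at 1wk, 162 ± 16.1 at 2wk, 314 ± 185 in HT mice and 166 ± 34.1 in LT mice. Usp2 averaged 2345 ± 434 in PBS mice, 2325 ± 460 at 1wk, 2238 ± 468 at 2wk, 1517 ± 481 in HT mice and 2565 ± 440 in LT mice. For all 3 genes the SD in HT mice was above that of each other group, though only slightly for Usp2. Usp21, by contrast, had a log2 fold change of -0.21 at 1wk (adjusted p = 0.314) beside -0.24 in HT mice, and Usp19 had -0.17 in both, without a call.

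The spread between mice was smaller for the deubiquitinases than for the typical gene in each group. The comparison was not matched for level. All 52 genes averaged at least 20 units, against 11630 of the 12573 genes. The median SD of the log2 value was 0.27 for the 52 genes in HT mice, beside 0.36 over all genes, and 0.15 in PBS mice, beside 0.21. It was 0.20 in LT mice, 0.14 at 2wk and 0.16 at 1wk. In PBS mice Usp8 varied least (SD 0.07) and Otud1 most (SD 0.70). In 1wk mice Uchl1 varied most (SD 0.68), which rests on C17 with 86.6 units against 18.1 to 35.9 in the other 7 mice. That mouse had the highest summed macrophage marker level of the 1wk mice, 15280 against a median of 2237. It also had their highest neutrophil (429), fibroblast (21800) and satellite cell (2931) sums, and their lowest muscle fibre sum (1374000).

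Other enzymes that remove ubiquitin or its relatives were taken from lists of family members. Of 14 further OTU, UCH and USP family genes, 3 were higher in HT than in PBS mice and 2 were lower. That comparison called 16.5% of all genes higher and 16.5% lower, shares that stand beside each count of this paragraph. The higher ones were Zranb1 (0.38), Vcpip1 (0.46) and Yod1 (0.61), OTU enzymes of which the last pair works with the segregase VCP. The lower ones were Otub2 (-0.61) and the ISG15 protease Usp18 (-0.58). Of 11 JAMM genes 4 were higher and 1 lower. Besides Psmd14 and Psmd7, Stambp, an endosomal enzyme, rose by 0.61 (adjusted p = 0.000672) and Cops5, which removes Nedd8 from cullins, by 0.33 (adjusted p = 0.0026), and Mpnd was lower (-0.49, adjusted p = 0.00197). In the Josephin, MINDY and ZUP1 list 2 of 8 were higher, Atxn3 (0.48) and Mindy1 (0.68), and none was lower.

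Among 11 proteases for SUMO, NEDD8 and UFM1, 4 Senp genes were higher (0.23 to 0.43) and Ufsp1 was lower (-0.94). Of 14 partner genes of deubiquitinases 3 were higher and 0 lower. Both counts stand beside 16.5% of all genes higher and 16.5% lower. Without C48, C54 and C55 the counts were 0 and 0 for the first list, 3 and 1 for JAMM, 1 and 0 for Josephin, MINDY and ZUP1, 1 and 0 for the SUMO, NEDD8 and UFM1 proteases and 0 and 0 for the partners. That fit called 7.5% of all genes higher and 8.63% lower. No gene of these lists was called in LT, 2wk or 1wk mice, where 0.636%, 0.0795% and 0.525% of all genes were called.

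The opposing enzymes, the ubiquitin ligases of muscle atrophy, were given for comparison. Fbxo32, the ligase also called atrogin-1, ranged from 3413 to 67300 units in HT mice (median 16260), against 2160 to 4891 in PBS mice (median 3370), a log2 fold change of 2.16 (adjusted p = 0.000216). Trim63, the ligase MuRF1, rose by 1.75 (adjusted p = 0.00337) and Fbxo30 by 0.60 (adjusted p = 0.0213), so 3 of 7 listed ligases were higher and 0 lower. Over all genes the shares were 16.5% higher and 16.5% lower. Without C48, C54 and C55 only Fbxo32 stayed called, in a fit that called 7.5% of all genes higher. Fbxo32 and Trim63 thus changed by more than any of the 52 deubiquitinase genes, of which Usp14 changed most with 0.83.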

How the data were processed

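RNA of the gastrocnemius was sequenced from 40 female mice (8 per group, 1 library each, single reads of 50 bases). The submitters' processing notes name STAR 2.7.8a, DESeq2 and Partek and the builds mm10 and mm39. The authors deposited a normalised signal, estimated reads divided by a DESeq2 size factor for each library, and 99.6% of these values are not whole; 75.3 to 89.4% of low values fell near whole multiples of what 1 read is worth. The table's coordinates match mm39 (99.8% of 12249 symbols lie at the same place in GENCODE vM39). The authors' own comparison tables (fold changes and p-values) were not used.

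The 52 genes and the lists were chosen with earlier results of these data known. Groups came from the labels. All 12573 genes were fitted with limma 3.58.1 (R 4.3.3; limma-trend on log2(value + 1), all 5 groups in a single fit), with two-sided moderated tests and Benjamini-Hochberg adjustment over all genes; calls have an adjusted p under 0.05. Fold changes are therefore on the log2(value + 1) scale, and a count test was not used because the values are not counts. The fit was tested on simulated data. Named are the called members (12 highest and 12 lowest against PBS, 6 and 6 against LT), the 5 highest and 5 lowest by level per kb, a list of 10 Usp and Uchl genes and all Otud genes, 29 in all. Alternatives were pseudocounts of 0.5 and 5, a mean of at least 20, only the 2 groups compared, library weights, quantile or median scaling, voom on estimated reads, an adjusted p under 0.01, leaving out each mouse, and leaving out HT mice C48, C54 and C55. No 2 of the 780 pairs of libraries were identical. Depth was 3.49 to 28.67 M estimated reads. Lengths are of the GENCODE vM39 canonical transcripts, and promoters come from RefSeq (GRCm38.p6). Python 3.11.15, pandas 2.3.3 and matplotlib 3.10.9 were used for summaries and figures. The result of the list of ubiquitin genes is not reported here.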

Additional observations from a re-analysis of the deposited data

Results flagged for a closer look

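In 29 named genes and 5 groups, 145 sets of 8 values were screened for a single mouse far from the other 7 (Dixon's 95% limit), and 12 stood out, where chance gives about 1 in 20. In HT mice these were Usp16 in C55 (1538 units, next value 1102) and Usp21 in C54 (112 units, next 176). In LT mice they were Uchl1 in C42 (64.6 units, next 31.2), Usp21 in C39 (230 units, next 199) and Usp3 in C56 (97.8 units, next 158). At 2wk Otud4 in C30 stood out (1460 units, next 1182). At 1wk there were Uchl1 in C17 (86.6 units, next 35.9), Usp13 in C17 (2129 units, next 3024), Usp47 in C17 (4052 units, next 5310), Usp32 in C20 (256 units, next 219) and Usp45 in C13 (406 units, next 356). In PBS mice Usp16 in C10 stood out (618 units, next 734). Of the 12, 3 came from C17. That 1wk mouse had the highest summed macrophage, neutrophil, fibroblast and satellite cell marker levels of its group, and the lowest muscle fibre level.

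The change against PBS differed between HT and LT mice, tested as HT minus LT, for 9 genes. This is the same test as the HT against LT comparison above, with the same genes and values, and not a further result. The difference on the log2 scale was 0.77 for Usp3, 0.69 for Usp14, 0.45 for Otud5, 0.35 for Usp45, 0.35 for Usp13, 0.34 for Usp46, 0.26 for Usp10, 0.22 for Usp8 and -0.82 for Usp2. Without C48, C54 and C55 the difference passed for Usp46 only.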

How the results depend on the processing

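No called result changed direction. The main counts were 9 higher and 2 lower genes in HT against PBS mice and 8 higher and 1 lower in HT against LT mice. Over all genes the shares were 16.5% and 16.5% against PBS and 9.94% and 10.5% against LT. With no other group in the fit the counts against PBS were 2 and 1, beside 9.93% and 9.53% of all genes. Against LT 0 were higher, beside 1.57%. With library weights 3 were higher against PBS, beside 11.3% of all genes, and 1 higher and 0 lower against LT, beside 1.07% and 1.79%. With voom on estimated reads 17 were higher and 1 lower against PBS, beside 20.2% and 9.33% of all genes. Without HT mice C48, C54 and C55 the counts were 3 and 1 against PBS, beside 7.5% and 8.63% of all genes. Against LT they were 1 and 0, beside 1.22% and 1.96%. At an adjusted p under 0.01 the counts were 4 and 1 against PBS, beside 9.22% and 9.45% of all genes. At that limit 3 were higher against LT, beside 3.22%. Leaving out each mouse in turn gave 7 to 15 higher and 1 to 3 lower against PBS, 4 to 11 higher and 1 lower against LT, and 0 calls at 1wk, 2wk and in LT mice. The shares over all genes in those fits are not given here. Over all genes voom moved the calls against PBS from 2069 higher and 2071 lower to 2541 and 1173 and the median log2 fold change to 0.09, so the split of higher and lower genes depends on the scaling. With voom 717 genes were higher and 500 lower against LT, beside 1250 and 1314. Usp14 and Usp3 passed against PBS under every alternative run. No paired analysis was possible because the mouse numbers are not shared between groups. HT and LT libraries held a median of 5.22 M estimated reads, against 20.83 M in the others, which limits genes such as Uchl1 and Usp35, and depth and group cannot be told apart against PBS.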
